A study of Mus musculus with 45 samples.

Results

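Heat shock chaperones are the proteins that hold, fold and disassemble other proteins, and here 10 of their genes, listed by name but with earlier results of these data known, were followed through the mouse hippocampus: Hspa1a, Hspa1b, Hspa5, Hspa8, Hsp90aa1, Hsp90ab1, Hspb1, Dnajb1, Hsph1 and Bag3. All 10 were present among the 15897 genes measured. The hippocampi came from 45 female C57Bl/6J mice. A+ mice carried the APPswe and PS1dE9 transgenes under the mouse prion protein promoter, and T+ mice carried human tau with the P301L mutation under the CaMKII promoter, which drives it in forebrain excitatory neurons. A+T+ mice carried both, from a cross of the heterozygous lines, and AwTw littermates carried neither. From 7 months of age until sacrifice at 13 months the mice were given either a standard diet (STD, 5% fat and 0% cholesterol) or a typical Western diet (TWD, 21% fat and 0.15% cholesterol). On STD there were 6 AwTw, 6 AwT+, 5 A+Tw and 4 A+T+ mice. On TWD there were 6 mice of each genotype, and every mouse was a separate animal.

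In the cytosol, Hsp70 proteins bind exposed hydrophobic stretches of a client in cycles of ATP binding and hydrolysis. J-domain proteins such as Dnajb1 deliver the client and start hydrolysis, nucleotide exchange factors such as Hsph1 and Bag3 release it, Hsp90 finishes the folding of kinases and steroid receptors, and small heat shock proteins such as Hspb1 hold unfolded clients without ATP. Heat shock factor 1 (Hsf1) is held inactive by chaperones until unfolded protein titrates them away. It then binds heat shock elements, inverted repeats of GAA and TTC, and switches on genes that include Hspa1a, Hspa1b, Hspb1, Dnajb1, Hsph1 and Bag3. Hsp90aa1 is the inducible Hsp90. Hspa8, the constitutive Hsp70, and Hsp90ab1, the constitutive Hsp90, are abundant in neurons without stress, and Hspa5 (BiP) is the Hsp70 of the endoplasmic reticulum, controlled by the unfolded protein response.

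The promoter sequences of 4 members are shown first, to let the matched letters be read in place. RefSeq promoter entries (GRCm38.p6) matched 7 of the 10 members, and the 250 bases before the start of each RefSeq entry were searched on both strands for GAANNTTC and TTCNNGAA, the inverted pairs of a heat shock element, and for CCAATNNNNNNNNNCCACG, the endoplasmic reticulum stress element. Capitals in the sequences below mark the matches.
Hspa1a: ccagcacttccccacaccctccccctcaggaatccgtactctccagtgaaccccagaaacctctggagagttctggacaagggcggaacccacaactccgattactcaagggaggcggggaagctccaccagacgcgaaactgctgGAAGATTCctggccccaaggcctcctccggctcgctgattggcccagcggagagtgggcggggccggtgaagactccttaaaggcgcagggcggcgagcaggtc
Hspa1b: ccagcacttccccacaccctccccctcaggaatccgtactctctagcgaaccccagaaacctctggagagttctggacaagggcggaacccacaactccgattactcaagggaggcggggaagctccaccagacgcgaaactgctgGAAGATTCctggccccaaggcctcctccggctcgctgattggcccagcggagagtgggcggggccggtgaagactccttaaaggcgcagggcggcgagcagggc
Hspb1: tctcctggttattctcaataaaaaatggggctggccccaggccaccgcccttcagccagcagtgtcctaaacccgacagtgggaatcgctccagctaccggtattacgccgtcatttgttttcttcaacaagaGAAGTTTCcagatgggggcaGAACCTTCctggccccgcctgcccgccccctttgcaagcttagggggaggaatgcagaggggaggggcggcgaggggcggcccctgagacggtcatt
Hspa5: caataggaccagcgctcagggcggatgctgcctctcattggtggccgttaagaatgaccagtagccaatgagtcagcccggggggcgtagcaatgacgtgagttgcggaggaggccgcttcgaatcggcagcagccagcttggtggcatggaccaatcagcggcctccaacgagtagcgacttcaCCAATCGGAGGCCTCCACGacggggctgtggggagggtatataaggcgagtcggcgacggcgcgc
These lie at chr17:34972157-34972406 on the minus strand (Hspa1a), chr17:34959239-34959488 on the minus strand (Hspa1b), chr5:135887669-135887918 on the plus strand (Hspb1) and chr2:34771840-34772089 on the plus strand (Hspa5). GAANNTTC began 104 bases before the start in Hspa1a and Hspa1b, and 117 and 97 bases before it in Hspb1. It was found in 6.694% of the 32851 promoters of the table, so a match was not rare. TTCNNGAA, found in 7.166% of promoters, was matched among the members in Hsph1, and the endoplasmic reticulum element, found in 0.113%, was matched in Hspa5, 65 bases before the start. The RefSeq starts are those of the GENCODE genes for Hspa1a, Hspa1b and Hspb1, but that of Hspa5 lies 120 bases inside the GENCODE gene, those of the 2 Hsph1 entries 61 and 40 bases inside, and that of 1 of the 2 Dnajb1 entries 355 bases inside. The entries of Dnajb1 and Bag3 held none of these letters in this window, which says nothing of the factor.

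Hspa1a and Hspa1b, which encode almost the same inducible Hsp70, are neighbouring genes of a single exon each on chromosome 17 (Hspa1a at 34969190 to 34972156 and Hspa1b at 34956436 to 34959238, minus strand). Their upstream sequences shown above were identical at 247 of 250 bases and differed by C44T, T47C and T249G, with the base of Hspa1a first and positions counted from the first base printed. Of the 50-base windows of their transcripts, the length of the reads, 1716 were shared, 58.8% of those of Hspa1a and 62.3% of those of Hspa1b. The split of reads between these genes was therefore estimated rather than observed, and their separate values are uncertain. Hsp90aa1 and Hsp90ab1 shared 0 such windows.

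Values are the authors' variance-stabilised expression on a log2-like scale with batch removed, so a difference of 1 is close to a doubling. They are not corrected for transcript length and are compared between mice, not between genes. Depth per mouse is not known from the table. A gene was said to change when its adjusted p in limma, corrected by Benjamini-Hochberg over all 15897 genes, was under 0.05. App, a form of which the A+ transgene encodes, was higher in A+ than in Aw mice by 0.90 ± 0.0476 (SE, limma adjusted p = 2.94e-19), and Prnp, whose sequences the transgene vector shares, by 1.11 ± 0.0436 (limma adjusted p = 7.40e-24). Choroid plexus markers varied widely between mice, with a mean of the 8 genes from 5.87 to 10.5.

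**Figure D1:**
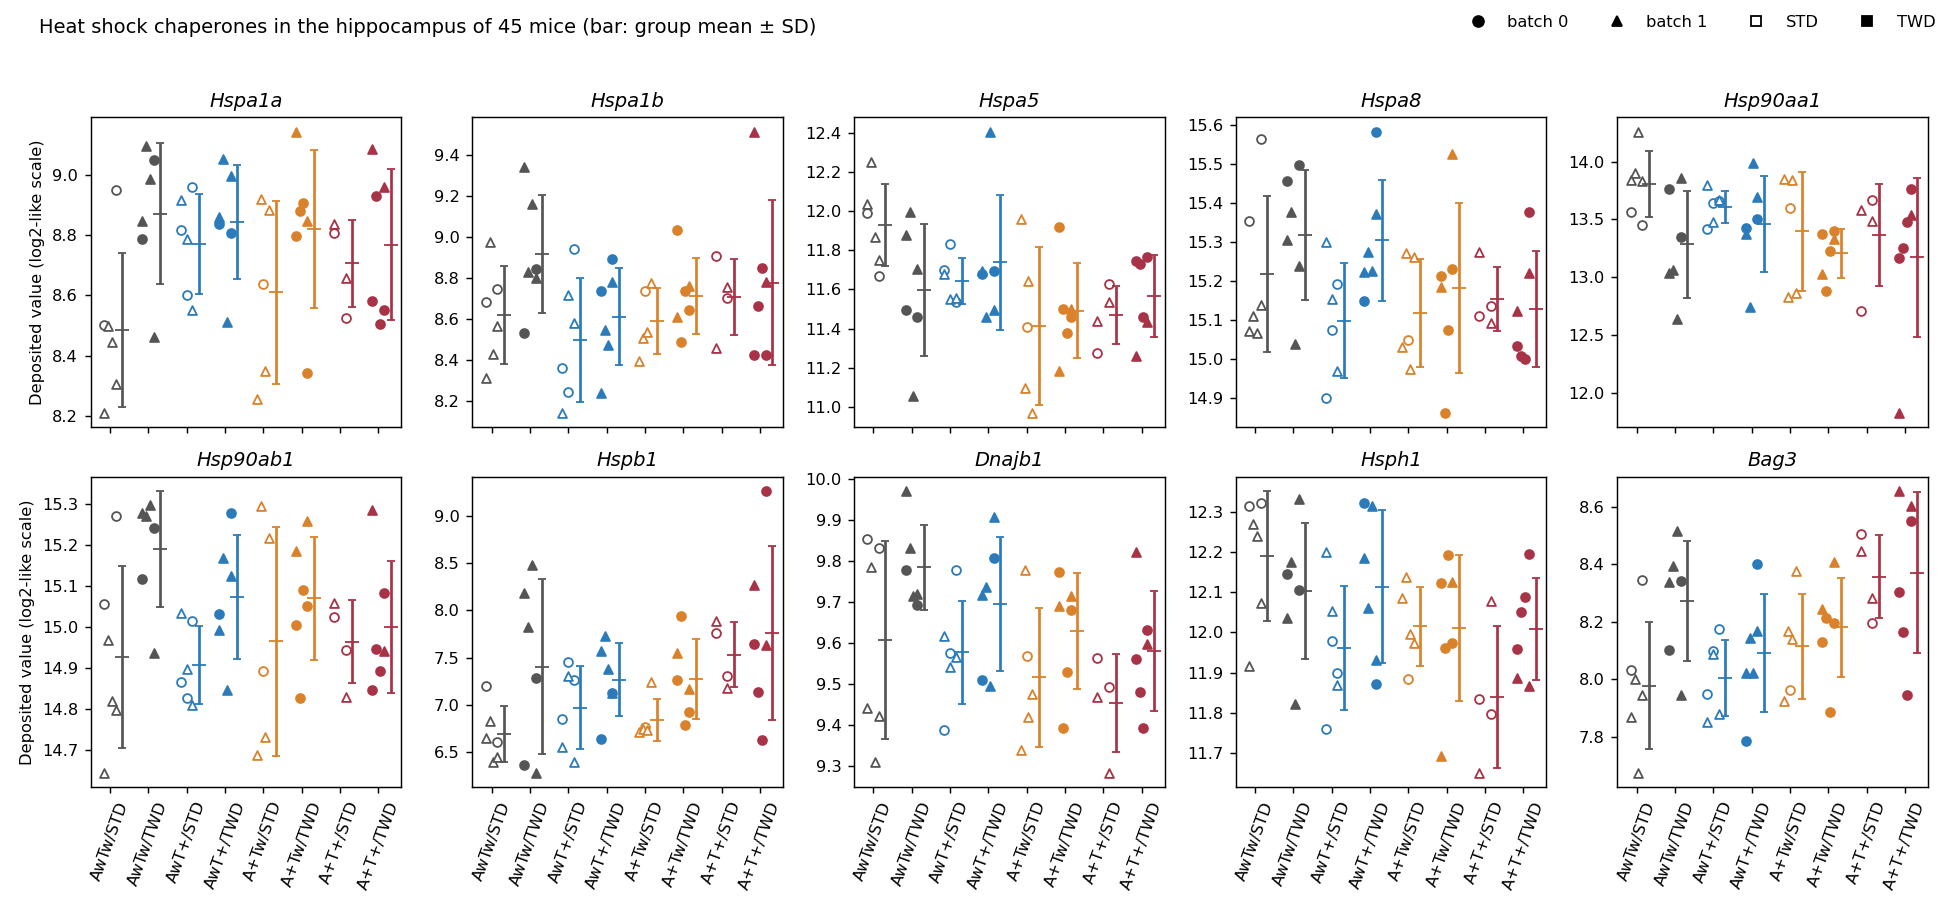
Deposited values (log2-like scale, y axis) of the 10 chaperone genes in 45 mice by genotype and diet (x axis), with open symbols for STD, filled symbols for TWD, circles for batch 0, triangles for batch 1 and bars for the group mean ± SD. Both diets overlap within every genotype for each of the 10 genes, and the group means of Hspb1 run from 6.69 in AwTw/STD to 7.76 in A+T+/TWD.

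When the 8 group means of a gene were put in order, all 7 neighbouring pairs differed by less than 1 pooled SD in each of the 10 genes. The largest step was 0.888 SD, for Hsp90aa1 between AwTw/STD and AwT+/STD. Sorting itself keeps neighbouring steps small, so this describes the values and tests nothing. The share of all genes with such steps was not counted. Groups farther apart in that order could differ by more, though no member passed the test in a genotype comparison. Hspb1 spanned the widest range, with group means from 6.69 in AwTw/STD to 7.76 in A+T+/TWD. Hspa8 spanned the narrowest, from 15.10 in AwT+/STD to 15.32 in AwTw/TWD. AwTw/STD was the group with the lowest mean for Hspa1a, Hspb1 and Bag3 and with the highest for Hspa5, Hsp90aa1 and Hsph1.

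The diet comparison asked which chaperones differed in the hippocampus on TWD. Over all genotypes, 4 of the 10 members were higher on TWD and 0 were lower, each by a small amount: Hspb1, Hspa1a, Hsp90ab1 and Dnajb1. Of all genes, 29.4% passed the test in either direction and 16.0% were higher on TWD, so the count of 4 stood near the share of the transcriptome in either direction and above it in the upward direction, over only 10 genes. The median difference of the members was 0.13, against -0.00 for all genes. At an unadjusted p under 0.05, 6 members and 7013 genes (44.1%) differed. With each mouse left out in turn, the count of members past the test ran from 0 to 5, and it was 0 in 10 of the 45 fits.

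Hspb1, the small heat shock protein Hsp27, is expressed in vessel walls and reactive astrocytes and binds actin and unfolded clients. On STD its values had a lowest, median and highest of 6.39, 6.62 and 7.20 in AwTw and of 6.39, 7.06 and 7.45 in AwT+, stood at 6.71, 6.75, 6.73, 6.76 and 7.24 in the 5 A+Tw mice, and at 7.88, 7.76, 7.31 and 7.18 in the 4 A+T+ mice. On TWD they were 6.28, 7.55 and 8.48 in AwTw, 6.64, 7.25 and 7.73 in AwT+, 6.78, 7.21 and 7.95 in the A+Tw group, and 6.62, 7.64 and 9.26 in the A+T+ group. The diets overlapped in every genotype, and the highest mice were on TWD. The difference was 0.44 ± 0.163 (SE, limma adjusted p = 0.0388; 21 against 24 mice), a fold of 1.36.

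Hspa1a, the inducible Hsp70, lay between 8.21 and 8.96 on STD with a median of 8.64 and between 8.34 and 9.15 on TWD with a median of 8.86. On STD the lowest, median and highest were 8.21, 8.47 and 8.95 in AwTw and 8.55, 8.80 and 8.96 in AwT+, with 8.26, 8.92, 8.35, 8.64 and 8.89 in the 5 A+Tw mice and 8.84, 8.81, 8.53 and 8.66 in the 4 A+T+ mice. On TWD they were 8.46, 8.92 and 9.10 in AwTw, 8.51, 8.85 and 9.05 in AwT+, 8.34, 8.87 and 9.15 in the A+Tw group and 8.51, 8.75 and 9.09 in the A+T+ group. The diets overlapped in every genotype, and mice below 8.34 were all on STD. Hspa1a was higher on TWD by 0.19 ± 0.0715 (limma adjusted p = 0.0401), a fold of 1.14. Hspa1b differed by 0.16 ± 0.0789, which did not pass (limma adjusted p = 0.114). With both genes summed on the unlogged scale, an alternative added after seeing the data that does not depend on the split of shared reads, the difference was 0.18 ± 0.0628 (limma adjusted p = 0.0327).

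Hsp90ab1, the constitutive cytosolic Hsp90, ranged from 14.65 to 15.30 on STD (median 14.90) and from 14.83 to 15.30 on TWD (median 15.09). Its lowest, median and highest on STD were 14.65, 14.89 and 15.27 in AwTw and 14.81, 14.88 and 15.04 in AwT+, with 14.69, 15.30, 14.73, 14.89 and 15.22 in the 5 A+Tw mice and 15.06, 15.02, 14.94 and 14.83 in the 4 A+T+ mice. On TWD they were 14.94, 15.26 and 15.30 in AwTw, 14.85, 15.08 and 15.28 in AwT+, 14.83, 15.07 and 15.26 in the A+Tw group and 14.85, 14.94 and 15.28 in the A+T+ group. The tops of both diets were level, and the values below 14.80 were all from STD mice. The difference was 0.15 ± 0.0532 (limma adjusted p = 0.0336), a fold of 1.11. After quantile normalisation of the deposited values it fell to 0.01 and the call was lost (limma adjusted p = 0.744), and Hspa8, differing by 0.09 as deposited, stood at -0.06.

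Dnajb1, the main J-domain partner of inducible Hsp70, ranged from 9.28 to 9.85 on STD (median 9.54) and from 9.39 to 9.97 on TWD (median 9.70). Its lowest, median and highest on STD were 9.31, 9.61 and 9.85 in AwTw and 9.39, 9.57 and 9.78 in AwT+, with 9.34, 9.78, 9.42, 9.57 and 9.47 in the 5 A+Tw mice and 9.47, 9.56, 9.49 and 9.28 in the 4 A+T+ mice. On TWD they were 9.69, 9.75 and 9.97 in AwTw, 9.49, 9.73 and 9.91 in AwT+, 9.39, 9.68 and 9.77 in the A+Tw group and 9.39, 9.58 and 9.82 in the A+T+ group. In AwTw on STD 3 mice lay from 9.31 to 9.44 and 3 from 9.78 to 9.85, and all 6 mice on TWD were above the lower 3 and overlapped the higher 3. This split was picked after seeing the values and was not tested, and the lower 3 were all of batch 1. The difference was 0.13 ± 0.0488 (limma adjusted p = 0.0365), a fold of 1.10.

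The other Hsp90 gene had a difference of the opposite sign, which did not pass the test. Hsp90aa1, the inducible cytosolic Hsp90, ranged from 12.71 to 14.26 on STD (median 13.65) and from 11.83 to 13.99 on TWD (median 13.36), and differed by -0.28 ± 0.122 (limma adjusted p = 0.0753). It passed after quantile normalisation, at -0.39 (limma adjusted p = 0.0400). Bag3, which couples Hsp70 to small heat shock proteins and selective autophagy, differed by 0.13 ± 0.0623 (limma adjusted p = 0.110) and Hspa8 by 0.09 ± 0.0519 (limma adjusted p = 0.162). Hsph1 (Hsp110), a nucleotide exchange factor and disaggregase partner, differed by 0.05 ± 0.0513 (limma adjusted p = 0.448), and Hspa5 by -0.03 ± 0.0823 (limma adjusted p = 0.813).

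**Figure D2:**
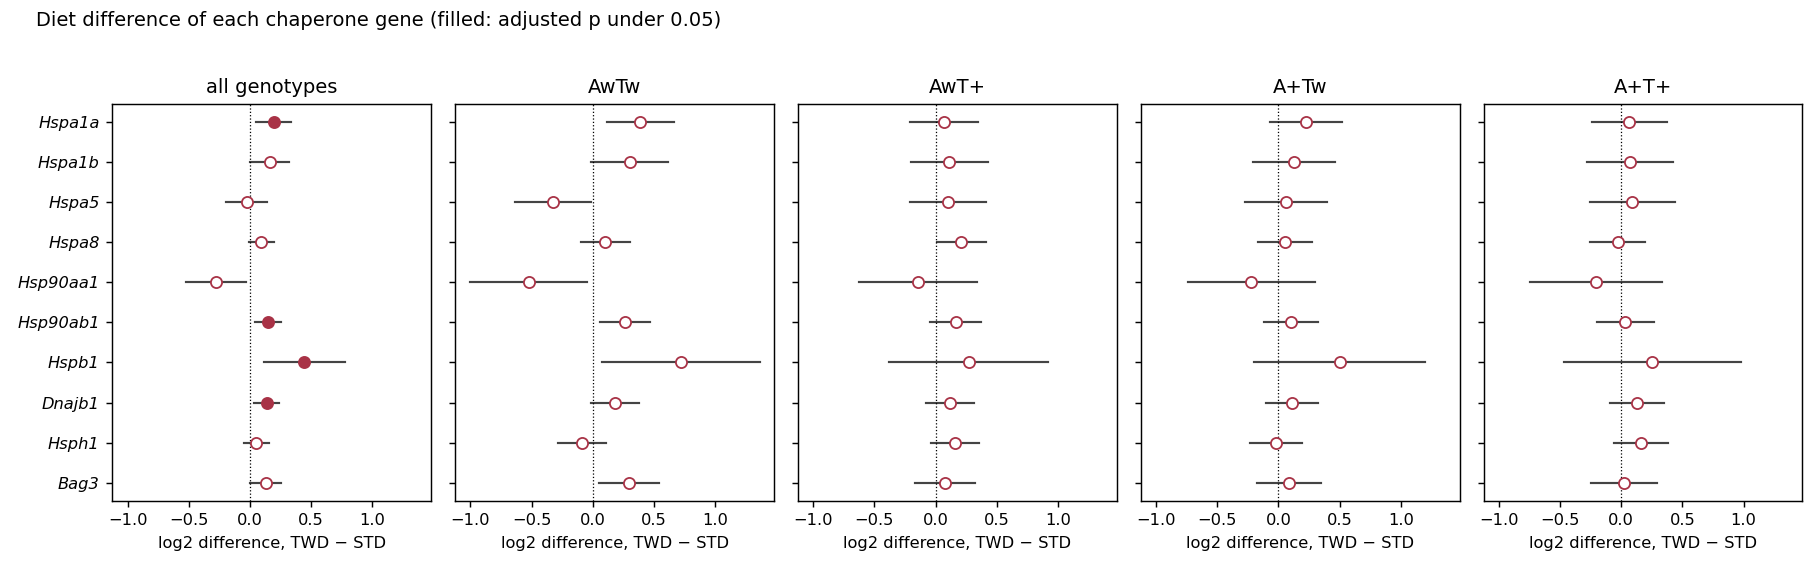
Log2 difference of TWD against STD (x axis) for each chaperone gene (rows) over all genotypes and within each genotype (panels), with 95% confidence intervals as lines and filled points for an adjusted p under 0.05. Hspb1, Hspa1a, Hsp90ab1 and Dnajb1 are filled over all genotypes, and no gene is filled within a genotype.

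Within single genotypes no member passed the test. In AwTw mice 9.35% of all genes passed. An unadjusted p under 0.05 was reached there by 6 of the 10 members and by 40.2% of all genes, and the member nearest to the threshold was Hspa1a, with a difference of 0.39 ± 0.136 (limma adjusted p = 0.0522). Also in AwTw, Hspb1 differed by 0.72 ± 0.319, Bag3 by 0.30 ± 0.120, Hsp90ab1 by 0.26 ± 0.103, Hspa5 by -0.33 ± 0.154 and Hsp90aa1 by -0.53 ± 0.238, with limma adjusted p from 0.0636 to 0.106. In each of the transgenic genotypes 0% of genes passed, and an unadjusted p under 0.05 was reached by 1183 genes in AwT+, 705 in the A+Tw group and 409 in the A+T+ group. Hspa1a there differed by 0.07, 0.23 and 0.07, and Hspb1 by 0.27, 0.50 and 0.25. The diet difference of each transgenic genotype minus that of AwTw mice passed for 0% of genes in limma, and for no member at an unadjusted p under 0.05, while 639, 352 and 1001 genes did, in the order above. For Hspa5 these interaction terms were 0.43 ± 0.218, 0.39 ± 0.226 and 0.42 ± 0.231, with limma adjusted p from 0.560 to 0.919.

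The diet calls came from batch 1 when each batch was fitted alone. Among the 20 mice of batch 0 none of the members and 0% of genes passed in limma (882 genes and 0 members at an unadjusted p under 0.05): Hspb1 differed by 0.02 ± 0.275, Hspa1a by 0.06 ± 0.0954, Hsp90ab1 by 0.08 ± 0.0677 and Dnajb1 by -0.00 ± 0.0698. Among the 25 mice of batch 1, where 40.9% of genes passed, 7 members did. Hspb1 was higher on TWD there by 0.75 ± 0.190, Hspa1a by 0.32 ± 0.0959, Hspa1b by 0.28 ± 0.108, Bag3 by 0.27 ± 0.0718, Dnajb1 by 0.24 ± 0.0662 and Hsp90ab1 by 0.24 ± 0.0773, and Hsp90aa1 was lower by 0.50 on the log2 scale, with limma adjusted p from 0.0176 to 0.0431. In a fit with a diet by batch term, added after seeing the data, no gene of 15897 passed in limma, and 4456 genes (28%) and 5 of the 10 members had an unadjusted p under 0.05. Of the members that term had the smallest p for Dnajb1 (0.25 ± 0.0945, limma adjusted p = 0.126) and the widest value for Hspb1 (0.72, 95% confidence interval 0.06 to 1.37, limma adjusted p = 0.152), so a difference between the batches was not shown.

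A component computed over all genes moved with diet. It held much of the residual variance of all genes, so correlation with it was common and not particular to the members. The first principal component of what remained after group and batch held 41.3% of that residual variance, and the correlation of a gene with it followed the gene's GC content (r = 0.714 across 15695 genes, which are not independent of each other). That correlation also went with transcript length, in the opposite direction (r = -0.383 with log2 length). To score each mouse, the gene weights of this component were applied to the deposited values, which keep the differences between groups. The score can therefore itself hold a diet effect. It was 0.394 ± 0.972 (SD) in the 24 TWD mice and -0.451 ± 0.845 in the 21 STD mice. GC-rich members lay on the positive side of the component, among them Hspa1a (58.9% GC, r = 0.737 with the component over 45 mice), Bag3 (56.1%, 0.682) and Hspb1 (61.7%, 0.598). Hsp90ab1 (51.0%) had 0.794, while Hsp90aa1, with the lowest GC of the members at 43.7%, had -0.869 and Hspa5 (45.6%) -0.582. The others were Hspa1b (58.1%, 0.384), Dnajb1 (52.7%, 0.567), Hsph1 (47.3%, -0.373) and Hspa8 (45.9%, 0.253), so r did not follow GC in every member. With the score as a covariate 0% of all genes passed for diet in limma, and so none of the members nor of the listed genes named further on (1281 genes and 1 member had an unadjusted p under 0.05). The members' diet differences were 0.14 for Hspb1, 0.06 for Dnajb1, 0.03 for Hsp90ab1, 0.03 for Hspa1a and 0.05 for Hsp90aa1. The score itself differed by diet, so as a covariate it can also remove part of a diet effect. Calls lost in this fit therefore cannot be read as absence of a diet effect. The part of this component in the diet differences was not tested further.

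Genotype was compared to ask whether amyloid or tau transgenes came with a chaperone response. No member passed in any of the 6 comparisons with AwTw. The share of all genes that passed was 0% for AwT+ on STD and 0% on TWD, 0.925% and 0.824% for A+Tw, and 1.32% and 0.730% for A+T+. It was 3.69% for all A+ against all Aw mice and 0.0126% for all T+ against all Tw mice, again with no member. At an unadjusted p under 0.05, 2 members and 2.39% of genes (380) differed in limma for AwT+ on STD and 0 members and 3.04% (484) on TWD. The same counts were 1 member and 5.66% of genes on STD and 0 and 5.2% on TWD for A+Tw, and 4 members and 14.3% on STD and 1 and 7.76% on TWD for A+T+. For all A+ against all Aw mice they were 5 members and 15% of genes, and for all T+ against all Tw mice 1 and 4.91%.

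The widest difference of a member from AwTw mice was that of Hspb1 in A+T+ mice on STD. It was at 7.88, 7.76, 7.31 and 7.18 there against 6.39 to 7.20 in AwTw/STD, a difference of 0.87 ± 0.358 (limma adjusted p = 0.267). Bag3 differed by 0.39 ± 0.134 (limma adjusted p = 0.180), Hspa5 by -0.46 ± 0.172 (limma adjusted p = 0.217), Hsph1 by -0.36 ± 0.108 (limma adjusted p = 0.102) and Hsp90aa1 by -0.46 ± 0.267 (limma adjusted p = 0.403). In the A+Tw group on STD Hspa5 differed by -0.51 ± 0.161 (limma adjusted p = 0.226). Hspa5 was at 11.28 to 11.63 in A+T+/STD and at 11.67 to 12.25 in AwTw/STD, and Hsph1 at 11.65 to 12.08 and 11.92 to 12.32. The share of all genes whose ranges lie apart in these groups was not counted. At an unadjusted p under 0.05 in limma, 14.3% of genes differed there. Within batches 0 and 1 the differences were 0.63 and 0.95 for Hspb1, 0.16 and 0.49 for Bag3, -0.38 and -0.49 for Hspa5, and -0.50 and -0.26 for Hsph1. They rest on few mice, with 2 A+T+/STD mice in each batch against 2 AwTw/STD mice in batch 0 and 4 in batch 1. On TWD the same differences were 0.41 for Hspb1, 0.11 for Bag3, -0.04 for Hspa5 and -0.11 for Hsph1. The 8 choroid plexus markers had a mean of 10.02 ± 0.338 (SD, n = 4) in A+T+/STD against 7.86 ± 1.63 (n = 6) in AwTw/STD, with 0 of 8 past the test. With that mean as a covariate, added after seeing the data, Hspb1 differed by 0.52 ± 0.352 (limma adjusted p = 0.730), Bag3 by 0.30, Hspa5 by -0.47 and Hsph1 by -0.26.

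Over all mice, Hspa5 was the member nearest to the threshold for A+ against Aw, at -0.24 ± 0.0827 (limma adjusted p = 0.117). It lay between 10.97 and 11.96 in the 21 A+ mice (median 11.46) and between 11.06 and 12.41 in the 24 Aw mice (median 11.70). Within batches the difference was -0.11 ± 0.0919 in batch 0 and -0.36 ± 0.132 in batch 1. Bag3 differed by 0.17 ± 0.0627 (limma adjusted p = 0.153), with 0.03 in batch 0 and 0.33 in batch 1, where it passed (limma adjusted p = 0.0121). Hsp90aa1 differed by -0.26 ± 0.123, Dnajb1 by -0.12 ± 0.0491 and Hsph1 by -0.12 ± 0.0516, with limma adjusted p from 0.199 to 0.306. For T+ against Tw the widest difference was that of Hspb1, 0.34 ± 0.163 (limma adjusted p = 0.994).

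**Figure D3:**
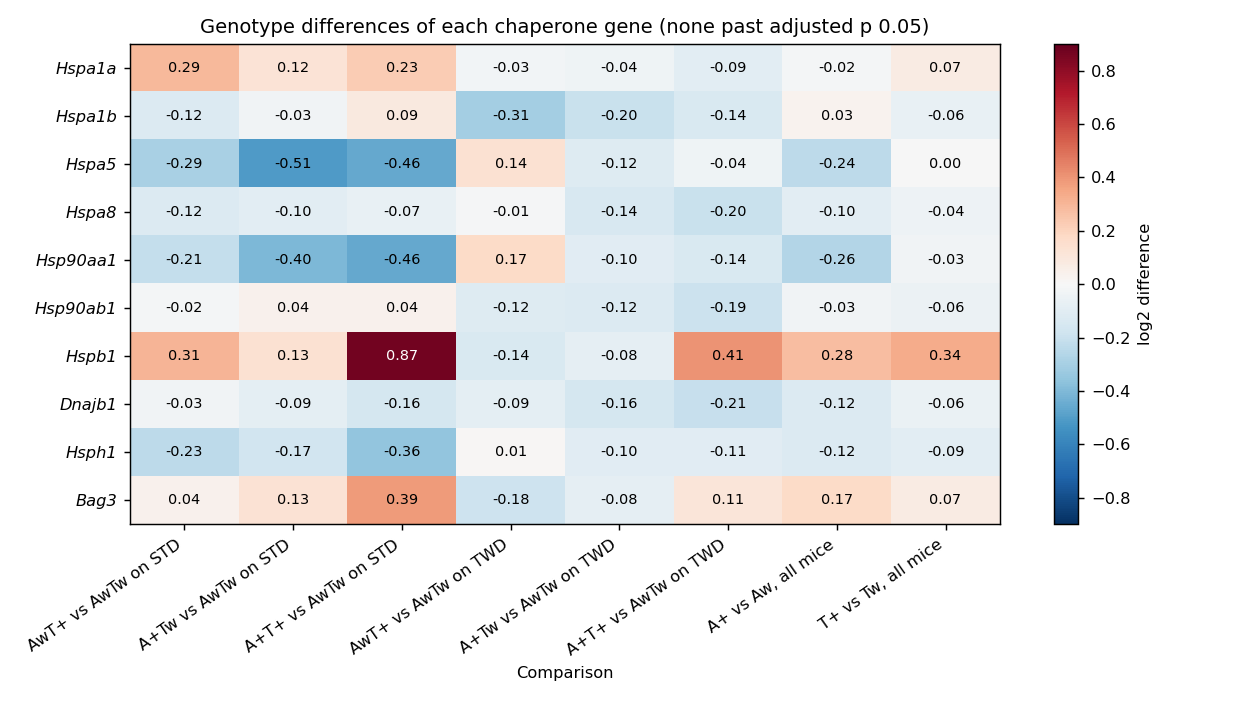
Log2 differences (colour and number) of each chaperone gene (rows) between genotypes (columns), from -0.51 for Hspa5 in A+Tw against AwTw on STD to 0.87 for Hspb1 in A+T+ against AwTw on STD. No cell passes an adjusted p of 0.05.

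The members did not vary as a single block between mice. Residuals after group and batch were correlated for the 45 pairs of members over 45 mice, and permutation p (100000 permutations, two-sided, smallest possible 1e-05) were adjusted over the 45 pairs. These tests were added after seeing the data. The residuals were permuted as 45 free values although group means and batch had been fitted, so these p are too small. The count of pairs that passed is therefore likely too high, and pairs near the threshold may not pass. Of the pairs, 27 passed an adjusted p of 0.05, 18 positive and 9 negative (25 passed with Spearman's rho). The smallest r among them was 0.326 in size, and 43.3% of all pairs of the 15897 genes reached it, 21.7% positive and 21.5% negative, so pairs of this strength were common in these data. Hspa1a and Hsp90ab1 were the closest pair (r = 0.741, permutation p = 1e-05, adjusted p = 6.43e-05; rho = 0.720, permutation p = 1e-05, adjusted p = 7.5e-05; r = 0.751 without the 2 mice farthest from the median of Hspa1a). Within batches this r was 0.253 in batch 0 and 0.890 in batch 1.

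Hsp90ab1 also went with Dnajb1 (r = 0.711, rho = 0.707) and Hspa8 (r = 0.662, rho = 0.662), and Hspb1 with Bag3 (r = 0.657, rho = 0.683), each with a permutation p of 1e-05, adjusted p = 6.43e-05 for r and 7.5e-05 for rho. Without the 2 farthest mice these r were 0.659, 0.599 and 0.627. In batch 0 they were 0.585, 0.831 and 0.687, and in batch 1 0.710, 0.515 and 0.753. As background, Hspa8 and Hsp90ab1 are the constitutive pair of the cytosol, while Hspb1 and Bag3 act together on aggregated clients. Any part of shared function in these r was not tested. On the other side stood Hsp90aa1, which ran against Hspa1a (r = -0.622, rho = -0.617, each with permutation p = 1e-05) and against its paralogue Hsp90ab1 (r = -0.581, permutation p = 1e-05; rho = -0.506, permutation p = 0.0004). The latter held in batch 1 (r = -0.736) and not in batch 0 (0.211), while Hspa1a with Hsp90aa1 was -0.661 and -0.541. Hspa1a and Hspa1b, for which shared reads could be exchanged, had r = 0.326 (permutation p = 0.0291, adjusted p = 0.0485) and rho = 0.261 (permutation p = 0.0846, adjusted p = 0.123).

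Part of this structure changed with the component score in the fit, as a description with no test. The r of Hsp90aa1 with Hsp90ab1 turned from -0.581 to 0.362, that with Hspa1a from -0.622 to 0.0557, that of Hspa1a with Hsp90ab1 fell from 0.741 to 0.38 and that of Hspb1 with Bag3 from 0.657 to 0.425. Hspa8 with Hsp90ab1 was 0.784 and Hsp90ab1 with Dnajb1 0.521. The median r of the 45 pairs was 0.155, with 26 above 0, and 0.186, with 31 above 0, after the score.

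**Figure D4:**
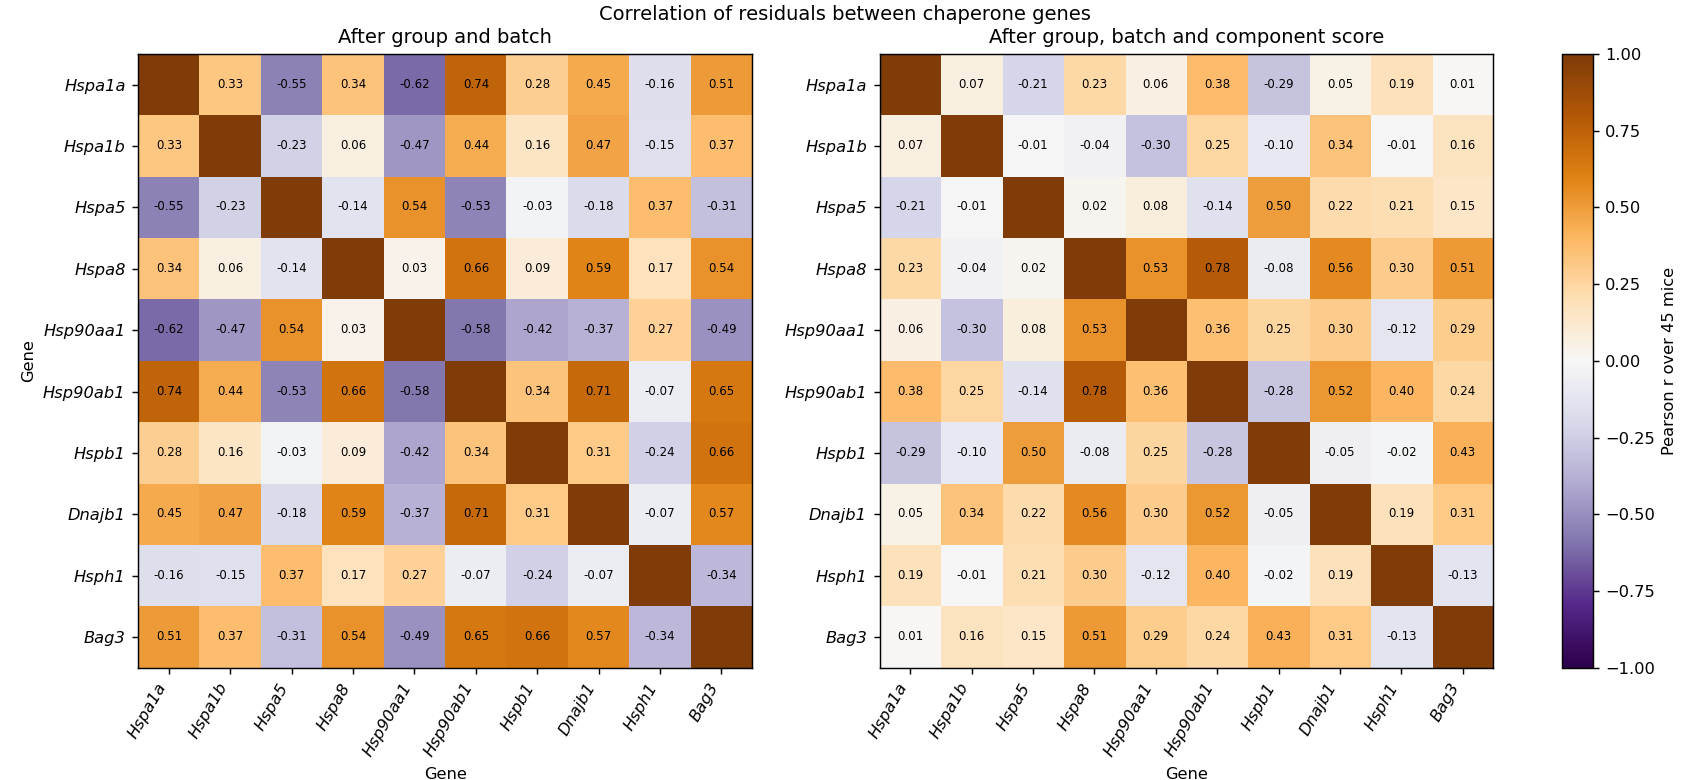
Pearson r over 45 mice (colour and number) of the residuals of each pair of chaperone genes (rows and columns) after group and batch (left) and with the component score as a further covariate (right). Hsp90aa1 is negative with Hsp90ab1 on the left (-0.58) and positive on the right (0.36).

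The genes most like each member were taken as the 3 with the highest r of residuals over the 45 mice. As the highest of all genes they are a description, with no test. Hspa1b was most like Jun (r = 0.777), Hspa5 like Sfpq (0.754) and Dnajc3 (0.746), an endoplasmic reticulum J-domain protein, and Hspb1 like Loxl1 (0.806), Serpinh1 (0.797), the collagen chaperone Hsp47, and Igfbp7 (0.789). Hspa8 was most like Rab7 (0.839), Hsp90ab1 like Abcf2 (0.967) and Gsk3a (0.961), Hsp90aa1 like Rabep1 (0.945) and Dnm1l (0.940), Dnajb1 like Lrrc59 (0.806), Hspa1a like Klc2 (0.840), Bag3 like Nos3 (0.839), the endothelial nitric oxide synthase, and Hsph1 like Hnrnpc (0.719). With the component score in the fit, Jun remained at 0.738 with Hspa1b, Rab7 at 0.856 with Hspa8 and Abcf2 at 0.910 with Hsp90ab1, while Klc2 with Hspa1a was 0.596, Sfpq and Dnajc3 with Hspa5 0.589 and 0.576, and Nos3 with Bag3 0.687. The mean of the standardised residuals of the 10 members was most like Kctd10 (0.778), Lrrc59 (0.770) and Stip1 (0.767), the co-chaperone Hop that bridges Hsp70 and Hsp90.

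The wider chaperone network, from lists of named genes, held calls in both directions. For this comparison 29.4% of all genes passed and 16.0% were higher on TWD, to be read beside the counts of each list. Of 25 other cytosolic chaperones, 11 were higher and 4 lower on TWD over all genotypes, with a median of 0.12. Those lower were Dnajb4 (-0.50), Hspa4l (-0.36), Hspa4 (-0.21) and Hspa12a (-0.20). Among those higher were Bag6 (0.42 ± 0.115, limma adjusted p = 0.0157), Cryab (0.35 ± 0.0925, limma adjusted p = 0.0157), a small heat shock protein of astrocytes and oligodendrocytes, and Stub1 (0.29 ± 0.0791, limma adjusted p = 0.0159), the ubiquitin ligase CHIP. Of 12 Hsp90 co-chaperones 5 were higher and 1, Chordc1 (-0.43), was lower, with Fkbp4 at 0.23, Stip1 at 0.19 and Ahsa1, which stimulates the Hsp90 ATPase, at 0.18. Of the 8 subunits of TRiC, the chaperonin that folds actin and tubulin, 3 were higher and 0 lower, Cct3 by 0.22, Cct7 by 0.17 and Cct6a by 0.12.

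In the organelles, of 8 mitochondrial chaperones and proteases 4 were higher and 1, the chaperonin Hspd1 (-0.22), was lower. Higher were, among others, Clpp (0.39 ± 0.101, limma adjusted p = 0.0157) and Trap1 (0.23 ± 0.0672, limma adjusted p = 0.0180), the mitochondrial Hsp90. Of 21 genes of the endoplasmic reticulum and its unfolded protein response 12 were higher and 2, Dnajb9 (-0.49) and the stress sensor Atf6 (-0.26), were lower. Those higher included Creld2 (0.35 ± 0.0767), Ddit3 (0.32 ± 0.0706), Atf4 (0.26 ± 0.0589) and Dnajb11 (0.25 ± 0.0609), each with a limma adjusted p of 0.0157, while Hspa5 did not pass. Of 4 heat shock factor genes Hsf1 was higher (0.22 ± 0.0711, limma adjusted p = 0.0221) and Hsf2 lower by 0.30 on the log2 scale (limma adjusted p = 0.0430). For comparison, 2 of 10 immediate early genes, 4 of 8 glucocorticoid-responsive genes and 1 of 12 clock genes were higher, and 1 clock gene, Clock (-0.52), was lower.

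**Figure D5:**
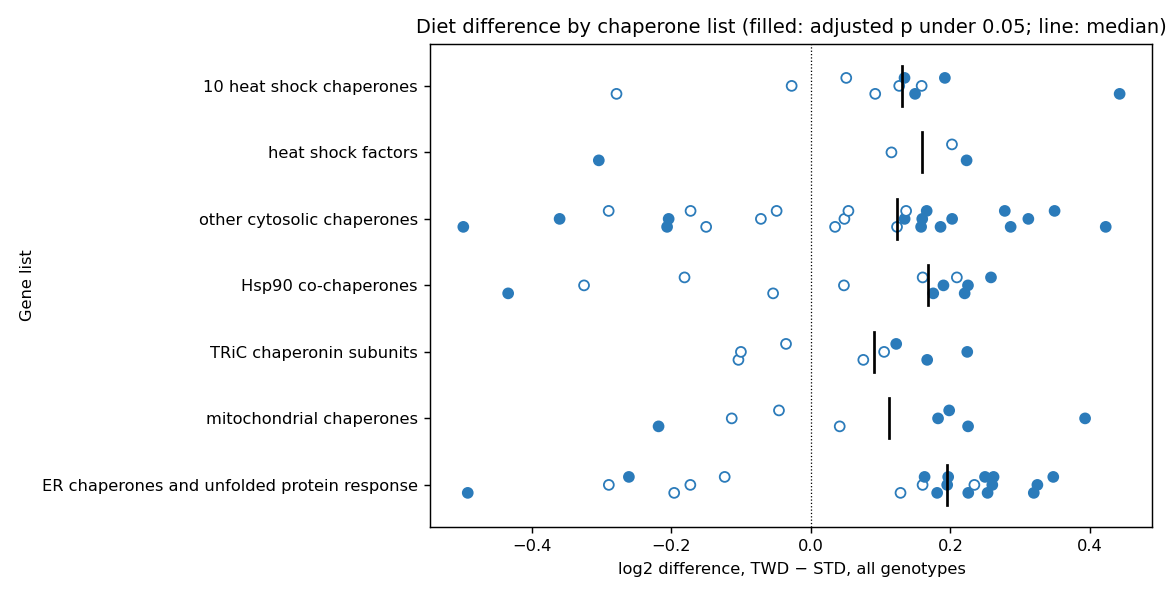
Log2 difference of TWD against STD over all genotypes (x axis) for each gene of 7 chaperone lists (rows), with filled points for an adjusted p under 0.05 and a line at the list's median. Medians lie from 0.09 for the TRiC subunits to 0.20 for the endoplasmic reticulum list.

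In AwTw mice alone 4 cytosolic chaperones (Bag6, Hspbp1, Hspa2 and Stub1), 1 Hsp90 co-chaperone (Ppp5c) and 2 mitochondrial genes (Clpp and Lonp1) were higher on TWD, and the endoplasmic reticulum list held 3 higher (Atf4, Creld2 and Ddit3) and 2 lower (Pdia3 and Atf6), each named gene at a limma adjusted p of 0.0498 and against 9.35% of all genes. By genotype 2 small heat shock proteins outside the 10 members passed, both from the list of 25 other cytosolic chaperones. Hspb6 was higher in A+ than Aw mice by 0.48 ± 0.106 (limma adjusted p = 0.00247). Hspb8, the partner of Bag3 in selective autophagy, was higher in A+T+ than AwTw mice on STD by 0.70 ± 0.186 (limma adjusted p = 0.0424). The choroid plexus mean was 10.02 in A+T+/STD against 7.86 in AwTw/STD, and its part in the Hspb8 difference was not tested. Of all genes, 3.69% passed for A+ against Aw mice and 1.32% for A+T+ against AwTw mice on STD. No gene of the heat shock factor, Hsp90 co-chaperone, TRiC, mitochondrial or endoplasmic reticulum lists passed in either of these comparisons, out of 4, 12, 8, 8 and 21.

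Cell type markers moved with diet as well, and bulk values cannot tell fewer cells of a type from less RNA per cell. Of 6 neuron markers 1 was higher and 3 lower on TWD, of 6 astrocyte markers 2 and 2, of 6 oligodendrocyte markers 3 and 0, of 6 microglia markers 2 and 1, and of 6 endothelial markers 1 and 1. Of 5 markers of plaque-associated microglia 2 were higher, Tyrobp (0.39) and Trem2 (0.34), and of 4 thalamus markers 1, Rora (-0.47), was lower. The 8 hippocampal, 8 choroid plexus and 4 blood markers had 0 past the test. Of all genes 29.4% passed. With the choroid plexus mean as a covariate, added after seeing the data, Hspb1 (0.52, limma adjusted p = 0.0136), Dnajb1 (0.13, limma adjusted p = 0.0441) and Hsp90ab1 (0.14, limma adjusted p = 0.0438) passed for diet, as did 33.9% of all genes, and Hspa1a did not (0.18, limma adjusted p = 0.0526). The part of the other cell types in the members' differences was not tested.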

How the data were processed

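RNA was extracted from the hippocampus of 45 female mice, and poly(A) RNA was sequenced in stranded libraries with single 50-base reads. The authors trimmed reads with Trimmomatic 0.38 after FastQC 0.11.8, removed ribosomal and mitochondrial reads with Bowtie 2 2.2.3, quantified transcripts with kallisto 0.44.0 against mm10, kept genes with a mean count above 10, applied the variance-stabilising transformation of DESeq2 1.22.2 and removed batch with limma 3.38.3. The deposited values are on a log2-like scale, from 1.9 to 18.08, with equal batch means for every gene, so the depth per mouse is unknown and precision rests on the spread between mice and their number. Count tests were not possible on these values.

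Groups and batch (20 and 25 mice) come from the labels. Members and lists were chosen with earlier results of these data known. In limma 3.58.1 (R 4.3.3, mean trend, two-sided), a fit of the 8 groups with batch gave 13 comparisons and a fit of genotype, diet and batch as separate terms gave 3. Adjusted p are Benjamini-Hochberg over 15897 genes with a threshold of 0.05, and the script was tested on simulated data. The rule for named genes took all members, values by mouse for members past the threshold, at most 4 genes per list with the smallest adjusted p past the threshold, the 3 genes most like each member, and App and Prnp. Listed genes lower on TWD were named after their values were seen, where a list held 4 or fewer. Symbols and coordinates are from GENCODE M21 (GRCm38, the build of the authors), and promoters from RefSeq. None of the members repeats the values of another gene. Alternatives were no batch term, each batch alone, the label prefix (29 AM and 16 PM mice, meaning not given), the component score, quantile normalisation, only the groups compared, no mean trend, genes above the 25th percentile of mean value, a threshold of 0.1 and each mouse left out, and, added after seeing the data, a diet by batch term, the choroid plexus mean and the sum of Hspa1a and Hspa1b. Python 3.11.15 with numpy 2.4.6, pandas 2.3.3, scipy 1.17.1 and matplotlib 3.10.9 was used for sequences, permutations and plots.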

Additional observations from a re-analysis of the deposited data

Results flagged for a closer look

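Of 80 gene and group combinations with 4 to 6 mice, 3 held a mouse far from the others of its group by Dixon's criterion. Chance gives this in about 1 of 20 groups, so 3 of 80 is no more than chance would give. Hspa5 was 12.41 in AwT+/TWD replicate 4, the highest of the group, with the nearest mouse at 11.70. Hsp90aa1 was 11.83 in A+T+/TWD replicate 1, the lowest of all mice, with the nearest of its group at 13.17. Hspb1 was 7.24 in A+Tw/STD replicate 5, with the nearest mouse at 6.76.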

How the results depend on the processing

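The calls for diet over all genotypes were the least stable. The count of 4 members became 0 in batch 0 alone, 7 in batch 1 alone and 0 with the component score, where 0%, 40.9% and 0% of all genes passed, and ran from 0 to 5 when each mouse was left out in turn. It was 0 without any of 10 mice (AwTw/STD replicates 1, 4 and 5, AwTw/TWD replicates 1, 2 and 3, AwT+/TWD replicate 3, A+Tw/STD replicates 1 and 3, and A+T+/TWD replicate 1), 1 without A+Tw/TWD replicate 2, and 2 without AwT+/STD replicate 5 or A+T+/STD replicate 4. The directions of Hspb1, Hspa1a, Hsp90ab1 and Dnajb1 were kept in all 45 such fits, with the lowest and highest differences 0.38 and 0.50, 0.17 and 0.22, 0.13 and 0.17, and 0.12 and 0.15, and calls lost in 15, 16, 10 and 14 fits. Dnajb1 reversed in batch 0 alone, to -0.0025. The component score itself differed by diet, so the count of 0 with it cannot be read as absence of a diet effect. The cause of these shifts was not tested.

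For TWD against STD in AwTw the count of 0 became 1 without a batch term (Hspa1a), 4 in batch 1 alone, 1 among genes above the 25th percentile (Hspa1a), 5 at a threshold of 0.1 and 1 with the choroid plexus mean, against 15.7%, 25%, 23.9%, 35% and 19.4% of all genes, and 0 to 5 with each mouse left out, with 5 without AwTw/TWD replicate 5, 3 without AwTw/STD replicate 6, 2 without AwTw/STD replicate 2 or AwTw/TWD replicate 4, and 1 without AwT+/TWD replicates 3 or 4, A+Tw/STD replicates 1, 2 or 3, or A+T+/TWD replicate 1. For A+ against Aw the count of 0 became 1 in batch 1 alone (Bag3), 1 with the component score (Dnajb1, -0.16) and 1 after quantile normalisation (Hspa8, -0.19), against 2.1%, 6.81% and 3.47% of all genes, and ran from 0 to 1 with each mouse left out (Hspa5, without AwTw/TWD replicate 3 or A+Tw/STD replicate 1). It also ran from 0 to 1 for A+Tw against AwTw on STD (Hspa5, without A+Tw/STD replicate 1) and for A+T+ against AwTw on STD (Hsph1, without AwTw/STD replicate 1 or A+T+/STD replicate 4). The other counts stayed at 0 members under each setting run. In batch 0 the A+Tw/STD group is a single mouse, assumed to vary like the others. No paired analysis was possible because the labels number no mice across groups.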
